A study of Mus musculus with 8 samples.

Results

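Gene expression was compared among 6 primary soft tissue sarcomas of the mouse, to describe which gene programs differed from tumour to tumour and which were at the same level in every tumour. The 6 sarcomas are the arrays titled as soft tissue sarcoma, out of 8 arrays in the series. All 6 were pooled whatever their Braf genotype, so the text describes spread and makes no test between groups. Total RNA was measured on Affymetrix expression arrays. The mice were Braf Ca/Ca or Braf Ca/+, and every animal, the muscle donors included, was p53 Fl/Fl. Tumours arose after injection of a Cre-encoding adenovirus, Cre being a recombinase that cuts at loxP sites, and the labels restrict it to no cell type. The sarcomas are Ca/Ca sarcomas 1, 2, 3 and 5 and Ca/+ sarcomas 1 and 2. The other 2 arrays, 1 Ca/Ca muscle and 1 Ca/+ muscle, came from a hind limb that bore no tumour and are given only as a background. No array comes from a Braf +/+ animal, and the sources used here give neither strain nor age. The labels do not say that each array comes from a separate animal, and no tumour was measured on more than 1 array, so differences between tumours and differences between arrays cannot be told apart.

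A bulk tumour sample holds malignant cells together with macrophages, lymphocytes, vessels, fibroblasts and remnants of the tissue it grew in. Interferons act through STAT and IRF transcription factors to induce a set of antiviral and antigen-presentation genes, and MHC class II molecules are carried mainly by professional antigen-presenting cells. Genes that lie side by side on a chromosome can be gained, lost or amplified together in tumours, and their transcripts then often move together. DNA copy number was not measured here. In these bulk samples, fewer cells of a type and less RNA per cell cannot be told apart.

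For each of 12393 genes the standard deviation (SD) and the range, which is the highest minus the lowest log2 level, were taken over the 6 sarcomas. One unit on the log2 scale is a 2-fold difference. The median SD was 0.24, and the middle 50% of genes lay between 0.17 and 0.39. A gene is called variable here when its SD was at least 1, which held for 494 genes (3.99%), and 38 genes had an SD of at least 2. The range was at least 1 for 3317 genes, at least 2 for 964 and at least 4 for 144. At the other end, 896 of the 2971 genes with a mean of at least 8 (30.2%) had an SD below 0.2 and are called constant. The members nearest the threshold were Timp3, Tlr1 and Chn1, which round to an SD of 1.00 from above, and H2-M3, P2ry14 and Plce1 (SD 1.00, 0.99 and 0.99), which lie just below it. Variable genes were found at every level of expression. They made up 0.979% of genes with a mean below 4, where most values sit near the background of the array, 5.12% of genes from 4 to 6, 5.21% from 6 to 8, 4.17% from 8 to 10 and 3.22% of genes from 10 upwards.

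**Figure D1:**
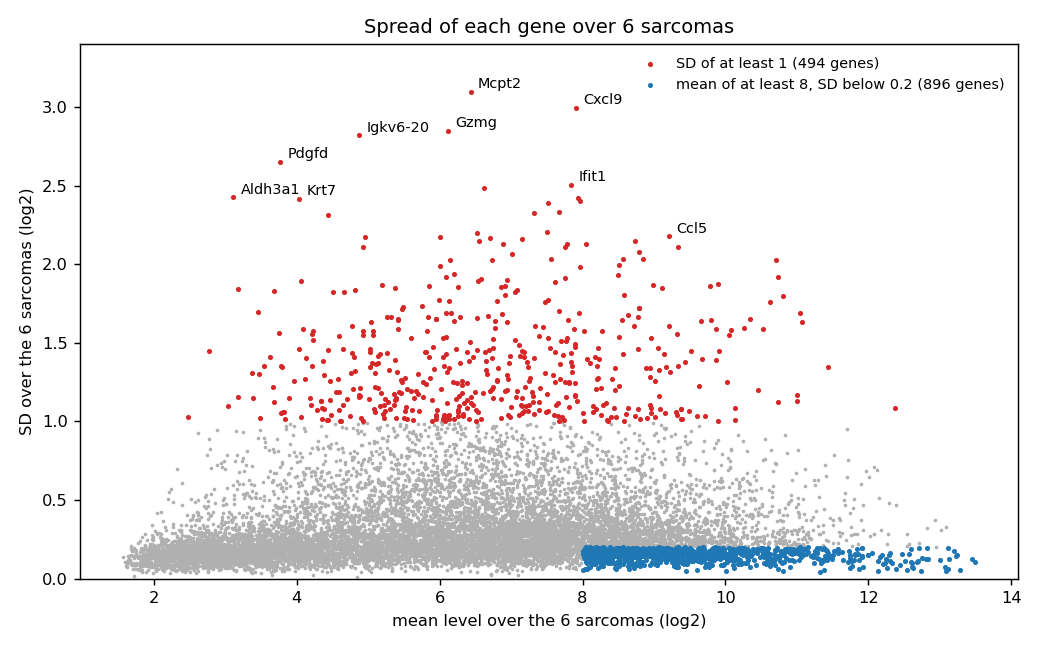
Each point is 1 of 12393 genes, plotted by its mean log2 level (horizontal) and its SD (vertical) over the 6 sarcomas. Red points are the 494 genes with an SD of at least 1, led by Mcpt2 at 3.10, and blue points are the 896 constant genes.

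The 18 hybridization control probe sets, which detect RNA added to every sample, had SDs from 0.08 to 0.38 with a median of 0.32, above the median of 0.24 over all genes. Their mean level was lowest in Ca/+ sarcoma 1 (9.43) and highest in Ca/Ca sarcoma 3 (10.22). The 3′ probe set of Gapdh exceeded its 5′ probe set by 0.06 to 0.24 log2 units and that of Actb by 0.41 to 0.62. Of the 133 variable genes with another probe set, that second probe set also had an SD of at least 1 in 57, and it was highest in the same sarcoma in 104. Where the second probe set had a mean of at least 6, these counts were 33 and 36 of 45. Braf, the targeted kinase gene, read 4.87, 4.64, 4.73 and 5.07 in Ca/Ca sarcomas 1, 2, 3 and 5 and 4.81 and 4.45 in Ca/+ sarcomas 1 and 2, with an SD of 0.21. The sources used here do not place its probe set against the engineered exons, so this level checks no label. The contractile muscle list stood at 6.35 to 8.15 in the sarcomas and at 11.49 and 11.78 in the muscles.

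One tumour accounted for much of the spread. Ca/Ca sarcoma 5 was farthest from the median of the other 5 sarcomas in 270 of the 494 variable genes (54.7%), lying below the others in 180 and above them in 90. Ca/+ sarcoma 1 was farthest in 77 genes (27 above, 50 below), Ca/Ca sarcoma 1 in 66 (56 above, 10 below) and Ca/Ca sarcoma 3 in 47 (44 above, 3 below). Ca/Ca sarcoma 2 was farthest in 20 genes and Ca/+ sarcoma 2 in 14. Without Ca/Ca sarcoma 5 the number of variable genes was 312, and leaving out any other sarcoma gave 483 to 572. Pairs of tumours showed the same picture. The number of genes that differed by at least 2-fold ran from 1325 to 1611 in the pairs that include Ca/Ca sarcoma 5 and from 327 to 1300 in the pairs that do not. The closest pair was Ca/Ca sarcomas 2 and 3, with 327 genes, and the 2 muscles differed by that much in 870. Along the first principal component (43.1% of variance) Ca/Ca sarcoma 5 lay at 63.1, with the others between -26.0 and 2.09. The second (26.1%) ran from Ca/Ca sarcoma 3 at -32.4 to Ca/+ sarcoma 1 at 41.9, and the third (14.1%) set Ca/Ca sarcoma 1 apart at 33.5.

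**Figure D2:**
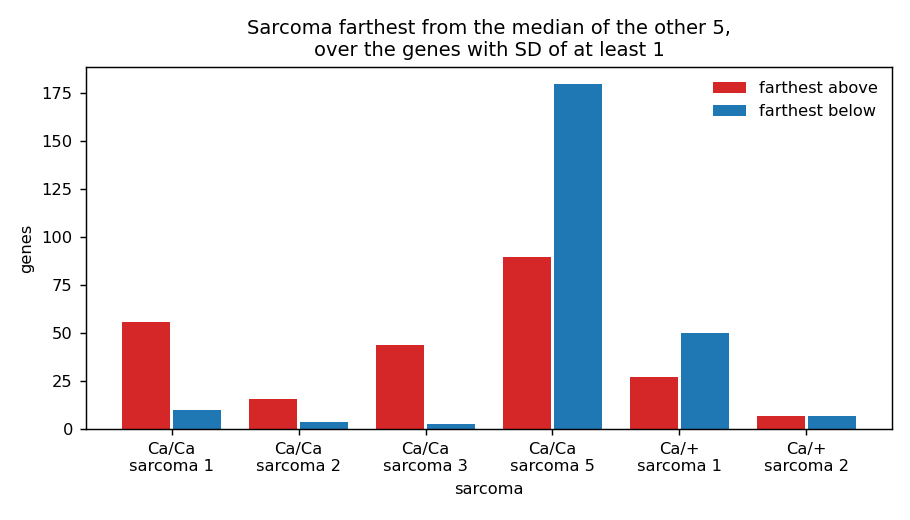
Bars count, for each sarcoma (horizontal), the variable genes in which it was farthest above (red) or below (blue) the median of the other 5 sarcomas. Ca/Ca sarcoma 5 has 90 genes above and 180 below, and Ca/+ sarcoma 2 has 7 of each.

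The 20 genes of highest SD included chemokines, granzymes and antibody genes, and also keratin, neuropeptide and ion channel genes. Mcpt2, a protease of mucosal mast cells, had the highest SD of all, 3.10. It read 3.93, 6.36, 5.41 and 2.99 in Ca/Ca sarcomas 1, 2, 3 and 5 and 11.37 and 8.53 in Ca/+ sarcomas 1 and 2, a range of 332-fold. Both Ca/+ sarcomas were above all 4 Ca/Ca sarcomas, and the muscles read 4.93 and 3.27. Gzmg and Gzmd, granzymes of cytotoxic lymphocytes, had a different order, with Ca/Ca sarcoma 1 highest (10.26 and 10.24) and Ca/Ca sarcoma 2 lowest (2.13 and 3.28). The antibody light chain genes Igk and Iglv1 were lowest in Ca/Ca sarcoma 5 (4.31 and 4.80) and next lowest in Ca/+ sarcoma 1 (5.61 and 5.26). Igkv6-20, a single variable segment, read 8.98 in Ca/Ca sarcoma 2 and 7.85 in Ca/Ca sarcoma 3 and 2.31 to 3.77 in the other sarcomas.

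**Figure D3:**
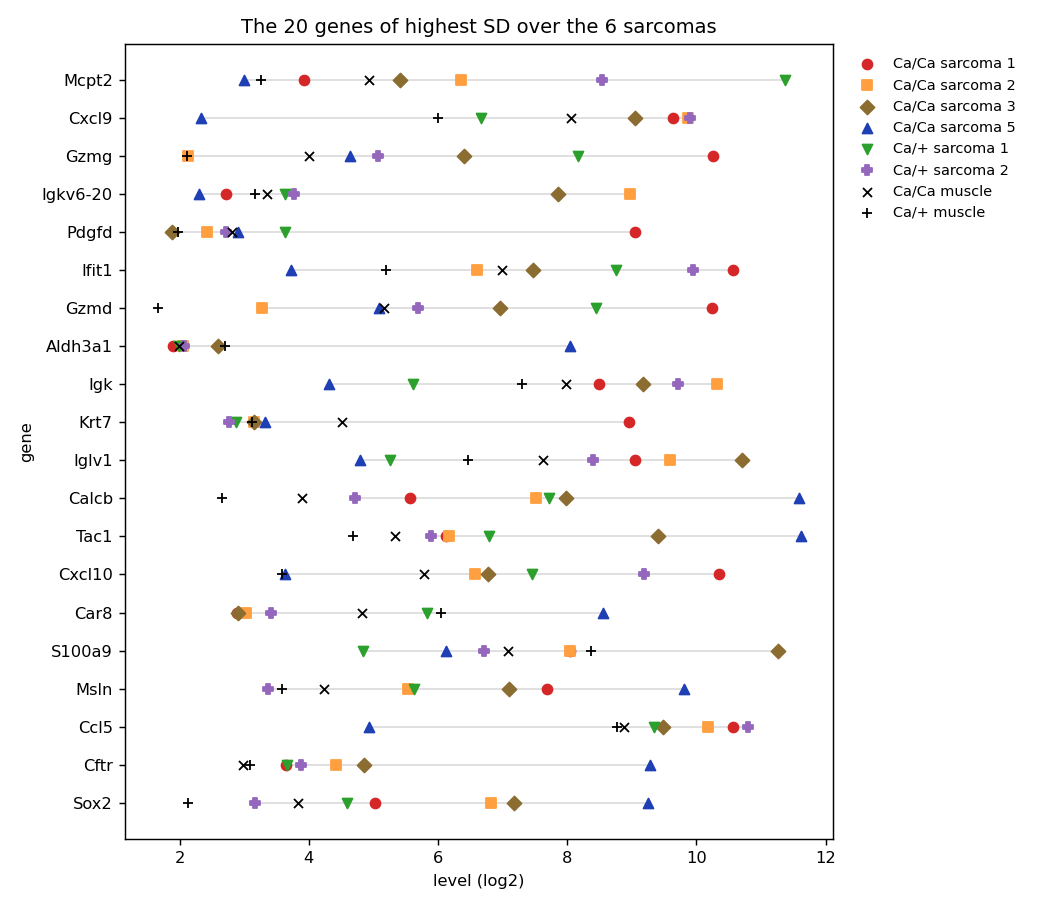
The log2 level (horizontal) of the 20 genes of highest SD (vertical) is shown in each of the 6 sarcomas (coloured symbols) and the 2 muscles (black). Krt7 and Pdgfd are high in Ca/Ca sarcoma 1 alone, Aldh3a1 and Cftr in Ca/Ca sarcoma 5 alone, and Cxcl9 and Ccl5 are lowest in Ca/Ca sarcoma 5.

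The 46 gene lists were grouped into classes. Counts of list members that were highest or lowest in a sarcoma are given without the share over all genes, so they only describe the list. Of 151 measured immune genes, 83 (55.0%) had an SD of at least 1, against 3.99% of all genes, and their median SD was 1.04. Without Ca/Ca sarcoma 5 the count was 49. Members and lists were chosen with earlier results of these data known, so the shares of all classes are descriptions. The share was 13.6% for neural genes (6 of 44), 16.0% for matrix genes (19 of 119), 15.7% for genes of other tissues (20 of 127) and 14.5% for signalling and identity genes (29 of 200, and 16 without Ca/Ca sarcoma 5). Among genes of growth and upkeep, which cover the cell cycle, ribosome, proteasome and metabolism, it was 0.382% (1 of 262, and 0 without Ca/Ca sarcoma 5).

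**Figure D4:**
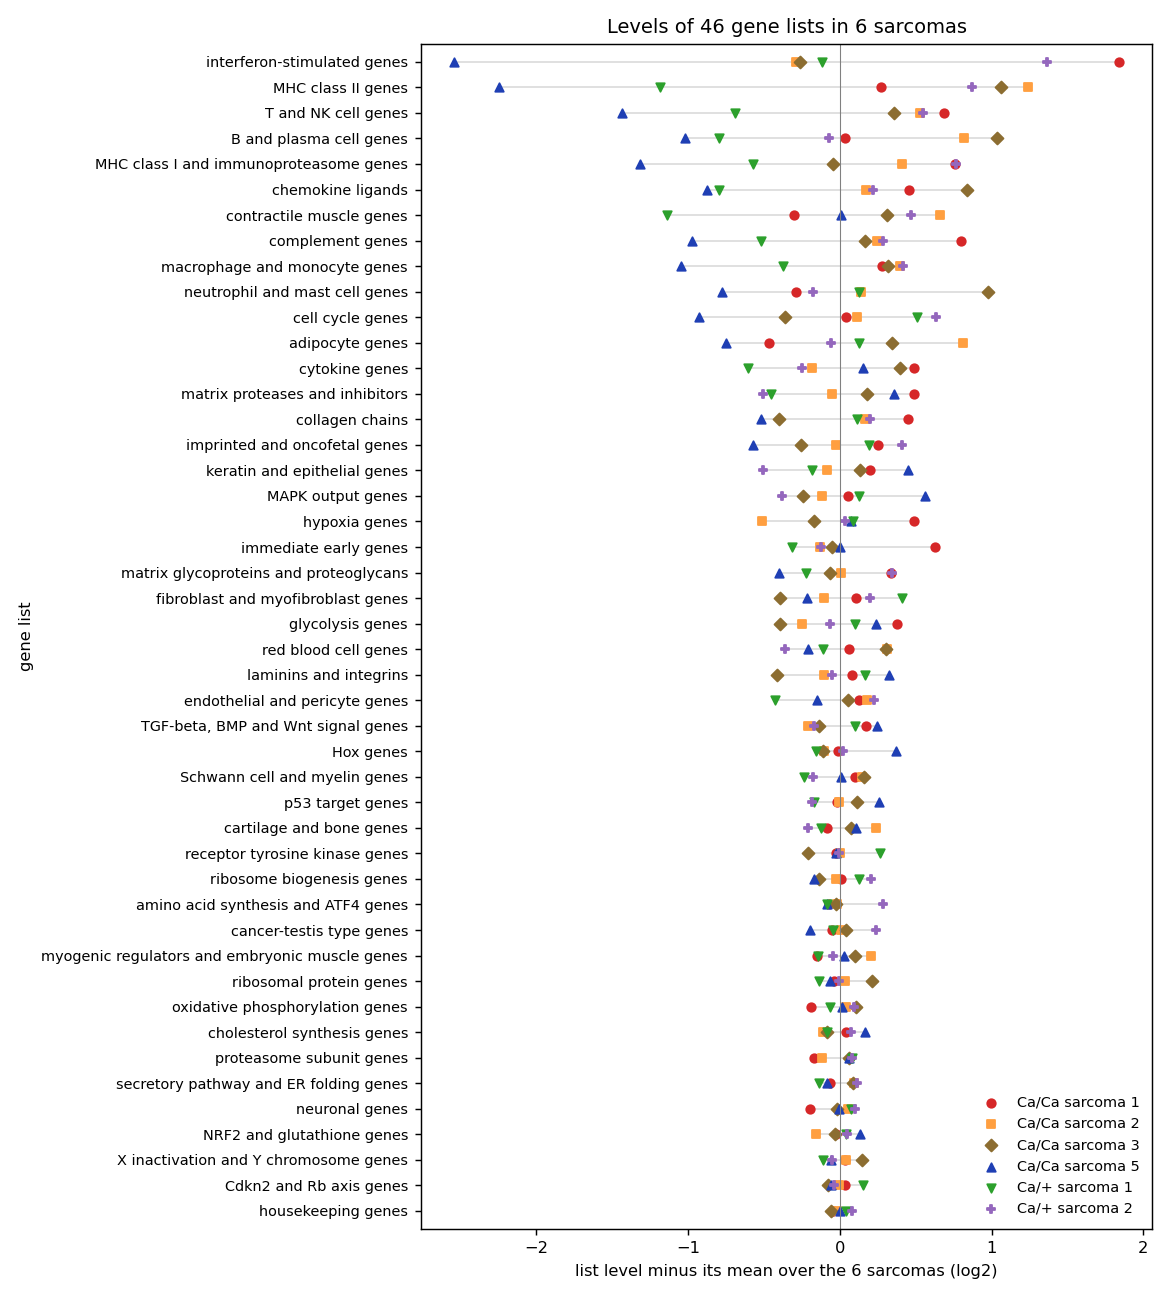
The level of each of 46 gene lists (vertical), which is the mean log2 level of its members, is shown in each of the 6 sarcomas as a difference from the list's mean over them (horizontal), with the lists ordered by their SD. The interferon-stimulated list is widest, from Ca/Ca sarcoma 5 at 5.20 to Ca/Ca sarcoma 1 at 9.58 before centring, and the housekeeping list is narrowest.

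Interferon-stimulated genes were the most variable list. Of 21 measured members 19 were variable, with a median SD of 1.59. The list level was 9.58, 7.46, 7.48 and 5.20 in Ca/Ca sarcomas 1, 2, 3 and 5 and 7.63 and 9.11 in Ca/+ sarcomas 1 and 2, a range of 20.9-fold. The Ca/Ca and Ca/+ muscles read 7.33 and 6.34, so only Ca/Ca sarcoma 5 lay below both. Ca/Ca sarcoma 1 was highest in 20 of the 21 genes and Ca/Ca sarcoma 5 lowest in 19. Ifit1, which binds viral RNA that lacks the host cap mark, read 10.57, 6.61, 7.47, 3.72, 8.75 and 9.94 in that order of tumours (SD 2.50). Ifit3, its partner, ran from 3.65 in Ca/Ca sarcoma 5 to 9.37 in Ca/+ sarcoma 2, with a median of 7.31. Iigp1, an interferon-inducible GTPase, read 5.46 in Ca/Ca sarcoma 5 and 8.64 to 11.01 in the others. The member of lowest SD was Mx2 at 0.63.

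Without Ca/Ca sarcoma 5, 11 of the 21 members were variable.

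The sequences in front of these genes are shown because 19 of the 21 members had the same lowest tumour. The promoters are the 200 bases before the RefSeq start of each gene in assembly GRCm38.p6, read 5′ to 3′ on the strand of the gene. Capitals mark GAAANNGAAA on either strand, the core of the element that interferon-activated factors bind. The 4 genes are those of highest SD that hold it among the 16 list members with a promoter in the RefSeq table. The other members were not searched.
Ifit1, plus strand of chr19:34640689-34640888: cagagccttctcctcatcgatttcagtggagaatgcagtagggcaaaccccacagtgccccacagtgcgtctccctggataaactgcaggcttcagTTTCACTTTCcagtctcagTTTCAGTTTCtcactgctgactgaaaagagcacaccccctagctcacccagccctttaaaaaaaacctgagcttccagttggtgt
Ifit3, plus strand of chr19:34583329-34583528: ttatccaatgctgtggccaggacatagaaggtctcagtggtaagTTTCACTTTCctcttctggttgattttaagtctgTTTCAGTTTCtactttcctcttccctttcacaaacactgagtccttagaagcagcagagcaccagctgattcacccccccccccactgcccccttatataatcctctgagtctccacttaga
Rsad2, minus strand of chr12:26456453-26456652: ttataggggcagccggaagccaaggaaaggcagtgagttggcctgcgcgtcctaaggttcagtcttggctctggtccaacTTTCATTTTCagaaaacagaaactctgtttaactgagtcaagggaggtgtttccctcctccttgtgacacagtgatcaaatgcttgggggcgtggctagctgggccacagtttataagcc
Gbp2, plus strand of chr3:142620463-142620662: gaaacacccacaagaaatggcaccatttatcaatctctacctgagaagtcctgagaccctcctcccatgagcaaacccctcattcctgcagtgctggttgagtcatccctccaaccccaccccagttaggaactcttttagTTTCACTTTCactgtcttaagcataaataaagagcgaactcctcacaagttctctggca
Ifit1 and Ifit3 hold 2 copies each, and Rsad2 and Gbp2 hold 1. Over the 300 bases from 250 before to 50 after the start, 9887 of the measured genes had a promoter in the RefSeq table. The motif was in 11 of 16 interferon-stimulated genes, in 3.84% of all genes, in 9.86% of variable genes and in 3.83% of constant genes. A match is a description of the letters and shows no binding.

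MHC class II genes, which present antigen to helper T cells, were variable in 7 of 8 measured members, with a median SD of 1.53. Their order of tumours was not that of the interferon list. The level was 8.84, 9.82, 9.64 and 6.33 in Ca/Ca sarcomas 1, 2, 3 and 5 and 7.39 and 9.45 in Ca/+ sarcomas 1 and 2, so Ca/Ca sarcoma 5 and Ca/+ sarcoma 1 were both low. H2-Eb1, a class II beta chain, read 7.87 in Ca/Ca sarcoma 5, 8.80 in Ca/+ sarcoma 1 and 11.59 to 12.52 in the others (SD 1.92). H2-Ab1, H2-Aa and the invariant chain gene Cd74 had the same 2 lowest tumours, with SDs of 1.76, 1.63 and 1.69. Ciita, the master transcriptional activator of the family, read 2.99 in Ca/Ca sarcoma 5, 4.07 in Ca/+ sarcoma 1 and 5.44 to 6.44 in the others. H2-DMa (SD 1.43), which helps load peptide, and H2-Oa (SD 1.20), which modulates that loading, had the same 2 lowest tumours. H2-DMb2 (SD 0.86) was the member below the threshold, and its lowest tumours were Ca/+ sarcoma 1 at 5.02 and Ca/Ca sarcoma 5 at 5.18. Without Ca/Ca sarcoma 5, 5 of the 8 members were variable. The muscles stood at 9.38 and 8.53 for the list, within the range of the sarcomas.

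MHC class I and immunoproteasome genes were variable in 4 of 11 members, and in 0 without Ca/Ca sarcoma 5. Psmb9, Psmb8 and Psmb10, the 3 catalytic subunits that replace those of the standard proteasome, had SDs of 1.41, 1.32 and 1.09 and were lowest in Ca/Ca sarcoma 5. B2m, the light chain of class I molecules, was bright in every tumour, from 12.11 to 12.83, with an SD of 0.28.

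Chemokine ligands, which draw leukocytes into tissue, were variable in 14 of 25 members (median SD 1.14), and in 12 without Ca/Ca sarcoma 5. Cxcl9 and Cxcl10, attractants of activated T cells, differed from each other in which tumours were high. Cxcl9 read 9.64, 9.88 and 9.05 in Ca/Ca sarcomas 1, 2 and 3, 2.33 in Ca/Ca sarcoma 5, 6.66 in Ca/+ sarcoma 1 and 9.90 in Ca/+ sarcoma 2. Cxcl10 was highest in Ca/Ca sarcoma 1 at 10.35 and in Ca/+ sarcoma 2 at 9.19 and stood at 3.63 in Ca/Ca sarcoma 5 and 6.57 to 7.46 in the other 3. Ccl5 was at 9.35 to 10.80 in 5 sarcomas and at 4.93 in Ca/Ca sarcoma 5, a gap of 4.42 below the next tumour. Cxcl13, an attractant of B cells, instead had its gap in Ca/+ sarcoma 1, which read 7.07, 2.93 below the next tumour, with 11.45 in the highest. Ca/Ca sarcoma 3 was highest in 12 of the 25 ligands. Cxcl15 stayed near the background in every sarcoma, from 2.21 to 2.66.

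Markers of lymphocytes were lowest in Ca/Ca sarcoma 5 and next lowest in Ca/+ sarcoma 1. T and NK cell genes were variable in 11 of 19 members, and in 4 without Ca/Ca sarcoma 5, and the list level was 4.31 in Ca/Ca sarcoma 5, 5.05 in Ca/+ sarcoma 1 and 6.10 to 6.43 in the other 4 sarcomas. Cd3g and Cd3d, subunits of the T cell receptor complex, read 3.34 and 4.84 in Ca/Ca sarcoma 5, 3.77 and 5.57 in Ca/+ sarcoma 1 and at least 6.31 and 7.26 elsewhere. Gzmb, a cytotoxic granule protease, departed from this order, with Ca/Ca sarcoma 1 highest at 9.78. Zap70, a kinase of T cell receptor signalling, had an SD of 0.20 and was highest in Ca/Ca sarcoma 5 at 8.38. B and plasma cell genes were variable in 6 of 12 members and highest in Ca/Ca sarcoma 3 at 7.67, then Ca/Ca sarcoma 2 at 7.45. Ms4a1, which encodes CD20, ran from 3.29 in Ca/Ca sarcoma 5 to 8.67 in Ca/Ca sarcoma 3, and Jchain, which joins antibody polymers, from 7.08 to 11.63 in the same tumours.

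Macrophage and monocyte genes were less spread than lymphocyte genes, with 8 of 28 members variable and a median SD of 0.64. The list level was 8.54 in Ca/Ca sarcoma 5, 9.21 in Ca/+ sarcoma 1 and at least 9.86 in the other 4, and Ca/Ca sarcoma 5 was lowest in 21 of 28 genes. Without Ca/Ca sarcoma 5, 1 of the 28 was variable. Ccr2, the receptor that brings monocytes out of blood, read 4.41 in Ca/Ca sarcoma 5, 6.19 in Ca/+ sarcoma 1 and 8.56 to 8.99 in the others (SD 1.89). Fcgr1 and Aif1 had SDs of 1.35 and 1.26 and were again lowest in Ca/Ca sarcoma 5. Not every member was low in that tumour, and 2 of the 28 were highest in it. Cd163, a variable member (SD 1.03) named after its values were seen, read 8.83 in Ca/Ca sarcoma 5. That was 1.70 above the median of the other 5 sarcomas. Csf1r, the receptor for a macrophage growth factor, and Cd68, a macrophage lysosomal protein, are named after their values were seen. Csf1r was also lowest in Ca/Ca sarcoma 5, at 11.01 against 11.64 to 12.31, while Cd68 read 9.24 there and 8.88 to 9.74 in the others.

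Granulocyte and mast cell genes were highest in different tumours. Of 17 members 9 were variable, also without Ca/Ca sarcoma 5, and the list level ranged from 5.10 to 6.85. S100a9 and S100a8, calcium-binding proteins of neutrophils, were highest in Ca/Ca sarcoma 3 at 11.27 and 11.99 and lowest in Ca/+ sarcoma 1 at 4.84 and 5.91. Cpa3, a mast cell protease, was highest in Ca/+ sarcoma 1 at 10.38 and lowest in Ca/Ca sarcoma 5 at 4.58, with Ca/Ca sarcoma 3 second at 9.07. The cytokine genes Il6 and Il1b also had their highest values in Ca/Ca sarcoma 3 at 7.56 and 8.64. Arg1, an arginine-degrading enzyme of some macrophages, was high in Ca/Ca sarcomas 1 and 5 at 10.56 and 10.57 and low in both Ca/+ sarcomas at 6.75 and 6.65. Complement genes were variable in 5 of 10 members, and in 1 without Ca/Ca sarcoma 5, led by Cfb (SD 1.44), which ran from 4.67 in Ca/Ca sarcoma 5 to 8.48 in Ca/+ sarcoma 2.

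Neural genes were mostly dim. Of 30 neuronal genes 6 were variable, with a median SD of 0.28. The list level, which averages in the dim members, spanned only 4.87 to 5.17. The 8 members with a mean of at least 6 were not even, with SDs from 0.64 (Dpysl3) to 1.60 (Gap43). The median SD of all genes with a mean from 6 to 8 was 0.29. The variable members did not share an order. Gap43, a protein of growing axons, read 9.05 and 8.88 in Ca/+ sarcomas 1 and 2, 7.86 and 7.75 in Ca/Ca sarcomas 3 and 5 and 6.30 and 4.87 in Ca/Ca sarcomas 1 and 2. Elavl2, a neuronal RNA-binding protein, was highest in Ca/Ca sarcoma 2 at 7.22, and Snap25, a synaptic fusion protein, in Ca/Ca sarcoma 5 at 6.30. Outside the list, the neuropeptide genes Calcb and Tac1 were among the 20 genes of highest SD. Calcb read 11.59 in Ca/Ca sarcoma 5 and 4.72 to 7.99 in the others, and Tac1 read 11.61 there, 9.40 in Ca/Ca sarcoma 3 and 5.89 to 6.80 in the remaining 4. Of 14 Schwann cell and myelin genes 0 were variable, and 2 had a mean of at least 6. Their most variable member, Fabp7 (SD 0.81), was at or below 4.16 in every sarcoma.

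Matrix genes had a median SD of 0.54 against 0.24 over all genes, and 13 of the 119 were variable without Ca/Ca sarcoma 5. Among 24 collagen chains 3 were variable, all non-fibrillar, and each was lowest in Ca/Ca sarcoma 5. Col15a1, a basement membrane collagen, ran from 4.99 there to 8.15 in Ca/Ca sarcoma 1 (SD 1.34), and Col14a1 and Col8a1 had SDs of 1.18 and 1.10. Lum, a collagen-binding proteoglycan, was lowest in Ca/Ca sarcoma 5 at 7.72 and Ca/+ sarcoma 1 at 8.08 and highest in Ca/+ sarcoma 2 at 11.80. Tnc, an adhesion-modulating glycoprotein, read 11.44 and 11.24 in Ca/+ sarcomas 1 and 2 and 8.05 to 10.04 in the Ca/Ca sarcomas. Tgfbi, a secreted adhesion protein, was the least variable glycoprotein at 10.78 to 11.40 (SD 0.25).

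The 3 members of highest SD in the fibroblast and myofibroblast list encode contractile proteins of smooth muscle cells. Tagln, an actin-binding protein, read 9.79, 8.42, 8.08 and 6.06 in Ca/Ca sarcomas 1, 2, 3 and 5 and 11.31 and 10.29 in Ca/+ sarcomas 1 and 2 (SD 1.87). Myl9 and Acta2, the myosin light chain and actin of smooth muscle cells, were also highest in Ca/+ sarcoma 1 and lowest in Ca/Ca sarcoma 5, with SDs of 1.77 and 1.45. The level of the whole list ran only from 8.17 to 8.97, and 4 of its 23 members were variable. Ca/Ca sarcoma 5 was highest in 7 of the 23.

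Of 22 matrix proteases and inhibitors 7 were variable, with a median SD of 0.63. Mmp9, a gelatinase, read 11.65 in Ca/Ca sarcoma 5 and 6.07 to 9.60 in the others. Mmp13, a collagenase, read 9.87 in Ca/Ca sarcoma 1, 8.62 in Ca/Ca sarcoma 3 and 4.44 to 7.48 in the others. Mmp10, a stromelysin, was highest in Ca/Ca sarcoma 3 at 11.79 and second in Ca/Ca sarcoma 1 at 10.94. Mmp10 and Mmp13 both lie in the run of neighbouring genes on chromosome 9 that holds Birc2 and Yap1. Laminins and integrins were variable in 1 of 23 members, and in 0 without Ca/Ca sarcoma 5. It was the integrin subunit gene Itgb4, which read 7.79 in Ca/Ca sarcoma 5 and 4.43 to 5.13 elsewhere.

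Some genes of other tissues were high in a single tumour. Krt7, a keratin of simple epithelia, read 8.95 in Ca/Ca sarcoma 1 and 2.77 to 3.32 in the other 5, and Krt19 read 7.28 there and 3.15 to 3.85 elsewhere. Krt18 and Krt8, which pair in simple epithelia, had another order: Ca/+ sarcoma 2 was lowest for both (5.24 and 4.68) and Ca/Ca sarcoma 5 highest (11.55 and 9.86). The keratin and epithelial list as a whole stayed low, from 3.73 to 4.69, and 5 of its 24 members were variable. Of 29 contractile muscle genes 9 were variable, and 12 without Ca/Ca sarcoma 5. Ca/+ sarcoma 1 was lowest in 23 of the 29. The parvalbumin gene Pvalb ran from 5.65 in Ca/Ca sarcoma 5 to 9.43 in Ca/+ sarcoma 2, below 13.49 and 13.38 in the muscles. Adipocyte genes were variable in 4 of 16 members, and in 2 without Ca/Ca sarcoma 5. Adipoq, which encodes the fat hormone adiponectin, read 3.80 in Ca/Ca sarcoma 5, 5.84 in Ca/Ca sarcoma 1 and 8.87 in Ca/Ca sarcoma 2. Of 20 endothelial and pericyte genes 0 were variable, and 12 were lowest in Ca/+ sarcoma 1.

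Each tumour had genes that stood clear of all the others. In Ca/Ca sarcoma 1 these were Krt7, Pdgfd and Krt19, with gaps of 5.64, 5.42 and 3.43 above the next tumour. Standing clear in Ca/Ca sarcoma 5 were Aldh3a1, an aldehyde dehydrogenase, at 8.04 against 1.90 to 2.60, Cftr, an epithelial chloride channel, at 9.29 against 3.65 to 4.86, and Hoxd1 at 6.87 against 2.15 to 2.88. Ca/Ca sarcoma 3 had S100a9, Tcfl5 and Glycam1 with gaps of 3.22, 2.72 and 2.70, and Ca/Ca sarcoma 2 had Anxa10 (3.01), Dlk1 (1.32) and Adcy8 (1.31). Ca/+ sarcoma 1 had Mcpt2, Tubgcp3 and Ankrd10 with gaps of 2.83, 2.64 and 2.49. In Ca/+ sarcoma 2, Osr2, Cnn1 and Ckmt2 stood 2.00, 1.58 and 1.33 above the next tumour.

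Other genes were low in a single tumour. Slpi, a secreted inhibitor of leukocyte proteases, read 7.10 in Ca/+ sarcoma 1 and 10.29 to 11.63 in the others. Cdkn2a, the tumour suppressor locus that encodes p16 and p19ARF, read 8.78 in Ca/+ sarcoma 2 and at least 11.01 in the other 5, with 8.88 and 4.32 in the muscles. Cadps and Lhx8 were lowest in Ca/Ca sarcoma 1, with gaps of 2.35 and 2.15. The transcription factor genes Nfix and Nfic were lowest in Ca/Ca sarcoma 3, with gaps of 1.57 and 1.56, and read 6.99 and 7.51 there.

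Signalling and identity genes had a median SD of 0.45. Hox genes, which record position along the body and limb, were variable in 5 of 29 members and in 1 without Ca/Ca sarcoma 5. Of the 29, 13 had an SD below 0.2, but the list was dim, with 5 members at a mean of at least 6. Ca/Ca sarcoma 5 was highest in 7 of the 29, and Ca/+ sarcoma 1 was lowest in 14. Hoxd8 read 9.50 in Ca/Ca sarcoma 5 and 5.04 to 7.53 elsewhere, and Hoxa11 read 7.21 in Ca/Ca sarcoma 5 and 3.98 in Ca/+ sarcoma 1. Sox2, a stem cell and neural transcription factor, was highest in Ca/Ca sarcoma 5 at 9.26 and lowest in Ca/+ sarcoma 2 at 3.16. Imprinted and oncofetal genes were variable in 6 of 16 members, and in 3 without Ca/Ca sarcoma 5. Dlk1, a paternally expressed growth regulator, read 10.63 in Ca/Ca sarcoma 2 and 6.16 in Ca/Ca sarcoma 5, while Igf2, the growth factor gene, was highest in Ca/Ca sarcoma 1 at 9.73 and lowest in Ca/+ sarcoma 1 at 5.88. MAPK output genes, which read the activity of the pathway that Braf drives, were variable in 1 of 19 members. That member, Ier3, ran from 7.84 in Ca/Ca sarcoma 2 to 11.25 in Ca/Ca sarcoma 5. Spred1, an inhibitor of the pathway, ranged only from 9.26 to 9.64. The MAPK list had a median SD of 0.50, and Ca/Ca sarcoma 5 was highest in 11 of its 19 members. Its level was 8.99 in that tumour and 8.05 to 8.56 in the others. Of 7 genes of X inactivation and the Y chromosome 0 were variable. Xist, the RNA that silences an X chromosome, read 9.34 to 10.90 in all 6 sarcomas, and the Y-linked gene Eif2s3y read 2.05 to 2.32 in them and 7.65 in the Ca/+ muscle.

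Among the lists whose members had low SDs were those of protein synthesis, protein breakdown, respiration and secretion. Ribosomal protein genes had a median SD of 0.14, with 12 of 16 below 0.2. Proteasome subunit genes and oxidative phosphorylation genes each had a median SD of 0.19, with 21 of 31 and 16 of 31 below 0.2, and secretory pathway genes had 13 of 24 below 0.2. The lowest SD among genes with a mean of at least 8 was that of Morf4l2, a chromatin protein, at 11.28 to 11.39 (SD 0.04). Ppp1ca, a protein phosphatase subunit, Rplp2 and Rpl7a, ribosomal proteins, Cdipt, a lipid enzyme, and Metap2, which trims the first methionine of proteins, followed with SDs of 0.05. Rpl6 and Eef1a1, the translation elongation factor, had SDs of 0.05 and 0.06, and Tram1 and Hadha also stood at 0.06. Within the housekeeping list the polymerase gene Polr2a was an exception, at 7.68 in Ca/Ca sarcoma 3 and 9.01 to 9.52 in the others (SD 0.64). The ribosomal protein list was highest in Ca/Ca sarcoma 3 at 11.66 and lowest in Ca/+ sarcoma 1 at 11.31, and the mean of the hybridization controls was also highest and lowest in these arrays, at 10.22 and 9.43. The part of the controls in that order was not tested.

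Cell cycle genes lay between these extremes. Their median SD of 0.66 was above the 0.24 of all genes, yet 1 of 39 members was variable, Mki67, which marks dividing cells. Mki67 read 8.52, 8.62, 7.76 and 6.39 in Ca/Ca sarcomas 1, 2, 3 and 5 and 9.09 and 9.16 in Ca/+ sarcomas 1 and 2. Aurkb and Top2a, of chromosome segregation and DNA untangling, had SDs of 0.95 and 0.93 and the same lowest tumour. Ca/Ca sarcoma 5 was lowest in 32 of the 39 genes, and the list stood at 6.66 there, 7.23 to 8.22 in the other sarcomas and 6.29 and 5.50 in the muscles. Glycolysis and hypoxia genes had median SDs of 0.42 and 0.48 with 0 variable members, and Ca/Ca sarcoma 1 was highest in 10 of the 16 measured hypoxia genes.

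Base composition of the promoters, which the SD did not use, is given as a description. The median observed-to-expected ratio of CpG pairs was 0.35 over 355 variable genes, 0.85 over 757 constant genes and 0.69 over all 9887 genes with a promoter in the RefSeq table. The letters TATAAA, searched on both strands, were found in 21.4% of variable, 6.47% of constant and 11.9% of all promoters. Among genes with a mean of at least 8 the order was the same, with a ratio of 0.35 for the 83 variable genes and 0.80 for all 2424. Rpl7a, a constant gene, is shown as a contrast to the interferon-stimulated genes, with its 23 CpG pairs in capitals over the same 200 bases, where Ifit1 has 2 and Ifit3 has 0.
Rpl7a, plus strand of chr2:26910607-26910806: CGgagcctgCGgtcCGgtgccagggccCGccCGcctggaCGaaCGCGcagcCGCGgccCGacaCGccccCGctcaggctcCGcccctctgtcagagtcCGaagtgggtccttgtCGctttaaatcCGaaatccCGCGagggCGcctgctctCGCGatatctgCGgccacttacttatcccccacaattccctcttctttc

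To find stretches of neighbouring genes that were high or low in 1 tumour, the 6895 genes with a mean of at least 6 were put in the order of the GRCm38.p6 gene table. In each tumour, windows of 15 genes were kept when their median differed by at least 0.5 from the other 5 sarcomas and at least 12 of the 15 genes had that sign. Of 39690 windows 66 were kept as higher (0.166%) and 190 as lower (0.479%). They joined into 34 runs, 13 higher and 21 lower. Ca/Ca sarcoma 5 had 13 runs, Ca/+ sarcoma 1 had 11, Ca/Ca sarcoma 3 had 4 and the other 3 sarcomas had 2 each. Several runs were clusters that hold many members of 1 gene family. The lower runs of Ca/Ca sarcoma 5 included 9 Ccl chemokine genes on chromosome 11, 9 Ms4a genes and 3 Ifit genes on chromosome 19, and 5 light chain genes on chromosome 6. Not every family member inside them was lower: Ccl6 and Ms4a8a, named after their values were seen, differed by 0.27 and 0.38, and Ccl9 by -0.12. The stretch with the 9 Ms4a genes also gave a lower run in Ca/+ sarcoma 1. That run had a median of -0.66 over 21 genes and was found in 14 of 18 settings tried. The stretch of chromosome 14 that holds 5 granzyme genes gave a lower run in Ca/Ca sarcoma 2, led by Gzmg and Gzmd, and a higher run in Ca/+ sarcoma 1, led by the mast cell proteases Mcpt2 and Mcpt4, with differences of 5.95 and 3.23. These runs were found in 9 and 10 of 18 settings tried, and Gzmg, Gzmd and Gzmb were higher in Ca/Ca sarcoma 1 than in Ca/+ sarcoma 1. The stretch of chromosome 17 that holds class II genes gave a lower run in Ca/+ sarcoma 1, with a median of -0.33. It gave higher runs in Ca/Ca sarcoma 2 and Ca/+ sarcoma 2, with medians of 0.42 and 0.37. The class II list was lower still in Ca/Ca sarcoma 5, at 6.33 against 7.39 in Ca/+ sarcoma 1.

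**Figure D5:**
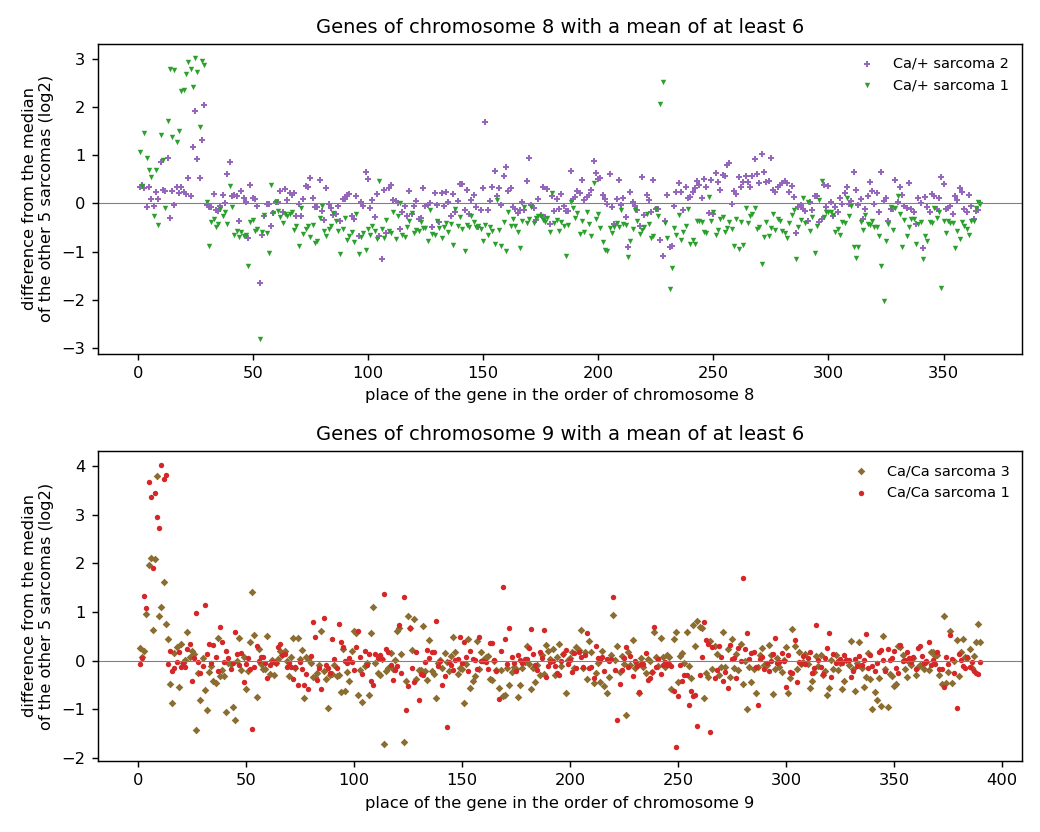
Each point is a gene with a mean of at least 6, placed by its order along chromosome 8 (top, both Ca/+ sarcomas) or 9 (bottom, Ca/Ca sarcomas 1 and 3), with its log2 difference from the median of the other 5 sarcomas on the vertical axis. In Ca/+ sarcoma 1 a run at the start of chromosome 8 has a median 2.79-fold above the others and the rest of the chromosome a median of -0.46, and in Ca/Ca sarcoma 1 the start of chromosome 9 holds a short run with a median of 2.83.

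Chromosome 8 of Ca/+ sarcoma 1 held 1 higher run and 7 lower runs. From Arhgef18 to Gas6, 27 of 30 genes were higher than in the other tumours, with a median 2.79-fold difference. These are genes with a mean of at least 6, a filter that the high tumour itself helps a gene to pass. Over all 54 measured genes of the stretch the median difference was 0.60 on the log2 scale, and 21 were higher by at least 1. Pcid2, Tmco3 and Arhgef7 had the largest differences, 3.02, 2.97 and 2.95. Tfdp1, the partner of E2F factors at cell cycle genes, and Cul4a, a ubiquitin ligase scaffold, lie in the same run and are named after their values were seen. Tfdp1 read 11.30 in Ca/+ sarcoma 1 and 10.48 in Ca/+ sarcoma 2 against 8.31 to 8.49 in the Ca/Ca sarcomas, and Pcid2 read 9.46 and 8.35 against 6.23 to 6.67. Cul4a read 9.32 and 7.50 against 6.50 to 6.79, so these 3 genes were second highest in Ca/+ sarcoma 2, where the 30 genes of the run had a median of 0.30. The other 336 genes of chromosome 8 went the opposite way in Ca/+ sarcoma 1, with a median of -0.46 and 317 of them (94.3%) below 0. Over chromosomes 1 to 19 and X in the 6 sarcomas, the whole of chromosome 8 in this tumour had a median of -0.43, and the other 114 medians outside chromosome 8 lay between -0.18 and 0.24.

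Among the 34 runs, the largest median difference was on chromosome 9 of Ca/Ca sarcoma 1, 2.83 over 14 genes from Casp1 to Fam76b, of which 13 were higher. Over all 25 measured genes of the stretch, dim ones included, the median was 1.32 and 14 were higher by at least 1. The filter on the mean counted Ca/Ca sarcoma 1 itself. Yap1, the transcriptional coactivator of the Hippo pathway, read 13.17 there and 8.86 to 10.11 in the others. Birc2 and Birc3, inhibitors of cell death signalling, read 10.95 and 12.12 against 6.58 to 8.04 and 7.99 to 9.99. The dim gene Pdgfd, a platelet-derived growth factor that lies in the same stretch, read 9.05 against 1.89 to 3.63. Not every gene of the stretch was high, since Trpc6 and Pgr, named after their values were seen, read 2.40 and 1.99 in Ca/Ca sarcoma 1 and at most 2.88 and 1.96 in the others. Both were dim in every sarcoma. All measured genes after Yap1, from Trpc6 to the run end Fam76b, differed by -0.12 to 0.37 from the median of the other 5 sarcomas. Fam76b itself, at 7.35, differed by 0.20. At the other end of the run Casp1 differed by 0.05. Ca/Ca sarcoma 3 was second highest for Yap1, Birc2 and Birc3 and had its own run over these genes, from Msantd4 to Panx1, with a median of 0.54. A lower run in Ca/Ca sarcoma 5 went from Msantd4 to Carm1, with a median of -0.52 over 41 genes, and was led by Casp4, Casp1 and Mmp3. Ca/Ca sarcoma 5 was not the lowest tumour for Yap1, Birc2 or Birc3. It read 9.36, 6.69 and 8.02 for them, and the lowest tumours read 8.86, 6.58 and 7.99. The higher run on chromosome 8 of Ca/+ sarcoma 1 and the runs from Msantd4 in Ca/Ca sarcomas 3 and 5 were found in all 18 settings tried, and the run of Ca/Ca sarcoma 1 on chromosome 9 in 16 of them.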

How the data were processed

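Biotin-labelled RNA of 8 samples was hybridized to Affymetrix arrays, and the deposited values are log2 levels of probe sets made with RMA, per the submitters' processing notes; the RMA version and whether all arrays were normalized in 1 batch are not given in the sources used here. No further normalization was applied. Of 22690 probe sets, 64 controls, 691 with several symbols and 1555 without a symbol were left out, and each gene was read from its probe set of highest mean over the 8 arrays. SD and range were taken over the 6 sarcomas, with no group test, and the number of arrays limits their precision. Gene order and promoters came from the RefSeq tables for GRCm38.p6. Of 1031 list entries 913 were measured. Members and lists were chosen with earlier results of these data known. Unless stated, genes are named by a rule: the 20 of highest SD, the 10 constant genes of lowest SD, the 3 highest and the lowest of each list, the largest gaps of each sarcoma, run ends and leaders, MHC class II and X and Y genes, genes at the threshold, and Braf. Alternatives were the spread measure, scaling, level filters, window settings and leaving out each sarcoma. The scripts were tested on simulated data. Python 3.11.15, numpy 2.4.6, pandas 2.3.3, matplotlib 3.10.9, R 4.3.3 and limma 3.58.1 were used.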

Additional observations from a re-analysis of the deposited data

Results flagged for a closer look

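A level stands here when 1 sarcoma was separated from the nearest other by a share of the whole range above Dixon's 95% critical value for 6 samples. Of 46 list levels 3 met this, and of 143 of the genes named in the text 26. Chance flags about 1 in 20 groups, and many of the genes were named for a large gap, so their count is a description. Among the lists, the share of the range was 0.815 for amino acid synthesis and ATF4 genes (Ca/+ sarcoma 2 highest), 0.664 for immediate early genes (Ca/Ca sarcoma 1 highest), 0.664 for Hox genes (Ca/Ca sarcoma 5 highest). The share takes no account of the size of the range, which was 0.37 log2 units for the amino acid synthesis and ATF4 list. Ca/+ sarcoma 1 was set apart as the highest for Tubgcp3 (0.825), Ankrd10 (0.780), Arhgef7 (0.761), Cul4a (0.644) and Metap2 (0.639). Metap2 is among the 10 constant genes of lowest SD, so its separation was small. Ca/+ sarcoma 1 was set apart as the lowest for Slpi (0.705) and Cxcl13 (0.668). Ca/+ sarcoma 2 was set apart as the highest for Ckmt2 (0.662). Ca/+ sarcoma 2 was set apart as the lowest for Cdkn2a (0.692). Ca/Ca sarcoma 1 was set apart as the highest for Krt7 (0.911), Krt19 (0.831), Pdgfd (0.756), Yap1 (0.710) and Birc2 (0.665). Ca/Ca sarcoma 1 was set apart as the lowest for Lhx8 (0.639). Ca/Ca sarcoma 2 was set apart as the highest for Anxa10 (0.792). Ca/Ca sarcoma 3 was set apart as the lowest for Nfic (0.729) and Polr2a (0.722). The highest value set Ca/Ca sarcoma 5 apart for Aldh3a1 (0.886), Hoxd1 (0.846), Itgb4 (0.792), Cftr (0.785) and Plce1 (0.660). The lowest value set it apart for Ccl5 (0.753), Gas6 (0.708) and Aif1 (0.652).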

How the results depend on the processing

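With 1 array per tumour, tumour and array differences cannot be told apart, and dim genes near the background have little room to vary. No group test was run, and no paired analysis was made. Under another setting 91 counts stayed within 1.5 times the value given and 19 did not, and without a sarcoma 34 did and 8 did not. Using the median absolute deviation in place of the SD, 312 genes were variable and 1380 constant, with 12 matrix and 4 growth and upkeep genes variable. Among genes with a mean of at least 6, 323 were variable, and 43, 11, 16 and 7 were farthest in Ca/Ca sarcomas 1, 2 and 3 and Ca/+ sarcoma 2. Over the Ca/Ca sarcomas only, 5 growth and upkeep genes were variable. Constant genes numbered 1396 from a mean of 7 and 512 from a mean of 9. Leaving out each sarcoma gave 312 to 572 variable genes (lowest without Ca/Ca sarcoma 5), 823 to 1181 constant genes, 49 to 85 immune genes (lowest without Ca/Ca sarcoma 5), 5 to 7 neural, 13 to 22 matrix and 0 to 6 growth and upkeep genes, and 21 to 47 runs (lowest without Ca/+ sarcoma 1). Centring on ribosomal proteins, which shifted the median gene by -0.21 in Ca/Ca sarcoma 3 to 0.14 in Ca/+ sarcoma 1, left 29 genes farthest in Ca/Ca sarcoma 3 and gave 109 runs. Runs numbered 75 with windows of 11 genes, 13 with windows of 21, 64 at a median difference of 0.4, 19 at 0.6 and 21 from a mean of 7. The sign of a list level against the other sarcomas turned in 2 comparisons and was kept, with little movement, in 305: housekeeping genes in Ca/+ sarcoma 2 under median centring (-0.0027), and X and Y genes in Ca/Ca sarcoma 3 under ribosomal centring (-0.0775); the cause was not tested.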

Other observations

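Of 2246 probe sets without a single gene symbol, which enter no comparison above, 86 (3.83%) had an SD of at least 1 over the 6 sarcomas, against 3.99% of named genes.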
